A study of Mus musculus with 46 samples.

Results

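Expression in BNST, the bed nucleus of stria terminalis, was compared between 72h and 8h after the last ethanol vapor session in mice given chronic intermittent ethanol (CIE). The comparison used 12 of the 46 arrays of the series, 6 from CIE mice taken at 72h and 6 from CIE mice taken at 8h, chosen by the treatment and time in their labels. All mice were adult male C57BL/6J, and each array held RNA of 1 mouse. CIE mice spent 16 hours a day for 4 days in ethanol vapor at 10 to 13 mg per l of air, then 7 days without ethanol, for 4 cycles, and were injected with ethanol (1.6 g/kg) and with pyrazole (1 mmol/kg), which blocks alcohol dehydrogenase, before exposure. Air control (Ctrl) mice received saline with the same pyrazole and only air, so that both groups carried the inhibitor. The 6 Ctrl mice at 72h and 6 Ctrl mice at 8h gave the change over the same interval without ethanol. Because 8h and 72h after a session fall at different times of day, time of day and time since ethanol cannot be told apart within CIE mice.

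The BNST is part of the extended amygdala and joins stress hormones, fear and reward to the hypothalamus and brain stem. Withdrawal from ethanol is known to raise corticosterone, the rodent glucocorticoid, which enters cells, binds its receptor and switches on a set of genes in glia, vessels and neurons. Cells also raise folding enzymes when unfolded proteins build up in the endoplasmic reticulum (ER), interferons switch on antiviral and antigen presentation genes, and the Notch receptor on one cell, when bound by a ligand on its neighbor, releases a fragment that turns on the Hes and Hey repressors.

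Values were log2 probeset intensities, so a difference of 1 is a 2-fold change. Array medians lay between 6.78 and 6.83 and any pair of the 46 arrays correlated at 0.981 or more. Among the 12 CIE arrays, 8h replicate 21 had the lowest median correlation with the others (0.9925, against 0.993 to 0.9965). Without it 328 genes were called in place of 350, 17 of the glucocorticoid-responsive genes in place of 19, 15 of the ER folding genes in place of 13 and 13 of the interferon-stimulated genes in place of 15. Of 22 measured markers of BNST and extended amygdala neurons, 19 were above the array median on each of the 12 arrays, and their mean level ranged from 9.99 to 10.2 at 8h and from 10.1 to 10.3 at 72h. Markers of neighboring striatum were also present (13 of 14 above the median), with a mean of 9.42 to 10.4 at 8h and 9.55 to 10.1 at 72h, whereas 4 of 15 choroid plexus and ependymal markers and 0 of 7 blood cell genes were above it. In whole tissue, fewer cells of a type and less RNA per cell cannot be told apart.

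Most changes between 8h and 72h in CIE mice were falls, led by glucocorticoid-responsive, interferon-stimulated and ER folding genes, while the largest rise was in the Notch target Hes5. At an adjusted p of 0.01 or less (limma, Benjamini-Hochberg over 45037 probesets), 618 probesets changed (1.37%), 170 up and 448 down. With 1 probeset per gene, 350 of 18193 genes (1.92%) changed, of which 93 rose (0.511%) and 257 fell (1.41%). Changes were small, with a median size of 0.43 among the called probesets, and 3 genes rose and 22 fell by more than 2-fold. The 6 mice at 72h did not overlap with the 6 at 8h for 271 of the 350 genes. Over all genes, the 72h mice were all higher for 214 (1.18%) and all lower for 308 (1.69%).

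Over the same interval 301 genes (1.65%) changed in Ctrl mice, 110 up and 191 down. Of the 350 genes called in CIE mice, 259 had the same sign in Ctrl mice (79 of 93 rises and 180 of 257 falls), and 37 were also called there, each in the same direction. The changes in CIE and Ctrl mice correlated at 0.72 over these 350 genes and at 0.16 over all 18193 genes, as a description across genes, which are not replicates. The change itself differed between CIE and Ctrl mice for 139 genes (0.764%), and 70 of the genes called in CIE mice were among them. In the plot of both changes these 70 genes lie away from the diagonal, which their choice by a called difference requires. Most lie near a Ctrl change of 0.

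**Figure D1:**
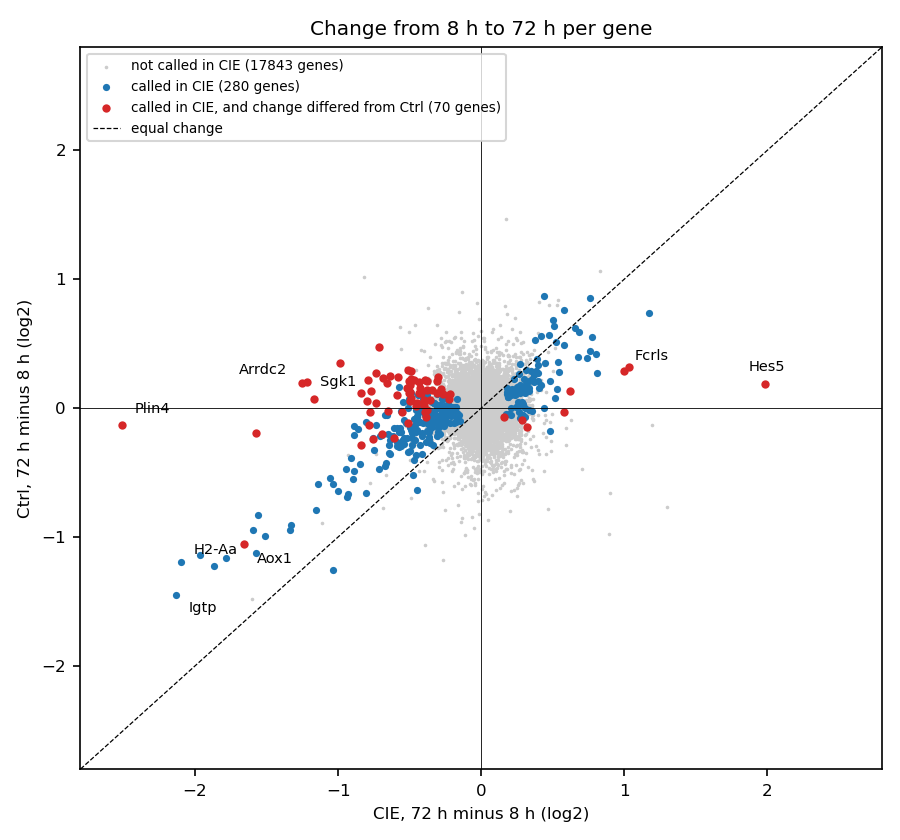
Change from 8h to 72h in CIE mice (x axis, log2) against the change in Ctrl mice (y axis, log2), 1 point per gene and 6 mice per group. Blue points are genes called in CIE mice and red points those whose change also differed from Ctrl; Plin4 and Hes5 lie at the far left and right with Ctrl changes of -0.13 and 0.19, while Igtp fell in both groups.

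Glucocorticoid-responsive genes fell together in CIE mice. Of 30 measured members of this list, 19 fell and 0 rose, against 1.41% and 0.511% of all genes, and the median change was -0.41 (0.01 over all genes). In Ctrl mice limma called 0 of the 30 (8 had an unadjusted p under 0.05) and the median was 0.03. The change was lower in CIE than in Ctrl mice for 15 members, against 0.478% of all genes. The list was drawn up with earlier results of these mice known and is not independent evidence of its direction. AGAACA, a part of the glucocorticoid response element, was, on either strand, in 2 of the 18 called members with a promoter window (the 250 bases before the start) and in 0 of 8 others, against 16.2% of all windows. The mean level of the list was 10.0 to 10.5 in CIE mice at 8h and 9.59 to 9.71 at 72h. Ctrl mice ranged from 9.67 to 9.81 at 8h and from 9.69 to 10.0 at 72h.

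Plin4, which encodes a perilipin that coats lipid droplets, showed the largest fall. Its level in CIE mice was 9.09, 9.58 and 10.16 (lowest, median, highest) at 8h and 6.87, 7.10 and 7.30 at 72h. All 72h mice were below all 8h mice, and the change was -2.51 ± 0.17 (SE, n = 6 and 6; 5.71-fold; adjusted p = 5.21e-14, limma). Ctrl mice held 7.28 to 8.07 at 8h and 7.16 to 8.23 at 72h, and the changes differed by -2.38 (adjusted p = 4.49e-08, limma).

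The kinase Sgk1, which regulates ion channels and transporters, was at 11.99, 12.69 and 12.82 at 8h and at 11.19, 11.28 and 11.75 at 72h, a change of -1.22 ± 0.13 (2.32-fold). The cell cycle inhibitor Cdkn1a (p21) went from 8.31, 8.84 and 9.72 to 7.52, 7.75 and 7.93 (-1.17 ± 0.13). Neither gene overlapped between the times. In Ctrl mice the changes of Sgk1 and Cdkn1a were 0.20 and 0.07, and both differed from CIE (adjusted p = 9.59e-06 and 1.39e-04, limma).

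Sult1a1, a sulfotransferase, fell from 9.66, 9.86 and 10.34 to 8.10, 8.29 and 8.57 (-1.57 ± 0.11), and the alpha-arrestin Arrdc2 from 7.79, 8.75 and 9.23 to 7.17, 7.37 and 7.63 (-1.25 ± 0.16). The secreted protease Htra1 fell by 0.78 on the log2 scale, the gap junction protein Gjb6 by 0.76, and Tsc22d3 (GILZ), a mediator of glucocorticoid action on inflammation, by 0.66. For these 5 genes the change differed from that in Ctrl mice. Pdk4, which holds pyruvate back from oxidation, fell by 0.86 in CIE mice and the difference from Ctrl did not pass the test (-0.70, adjusted p = 0.0587, limma).

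Not all members were called. Fkbp5, a co-chaperone that limits the glucocorticoid receptor, had a change of -0.32 ± 0.08 (adjusted p = 0.0130, limma), with 5 of the 6 mice at 72h below all those at 8h. Per1, a clock gene that glucocorticoids also induce, had a change of 0.03 ± 0.09. At 72h, 27 of the 30 members had a lower mean in CIE than in Ctrl mice, with a median difference of -0.16. Of the 30, limma called 0 as lower, against 0.22% of all genes, and 1 as higher. Without adjustment 14 were lower with a p under 0.05 (limma). Sgk1 was at -0.55 (adjusted p = 0.0189, limma).

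**Figure D2:**
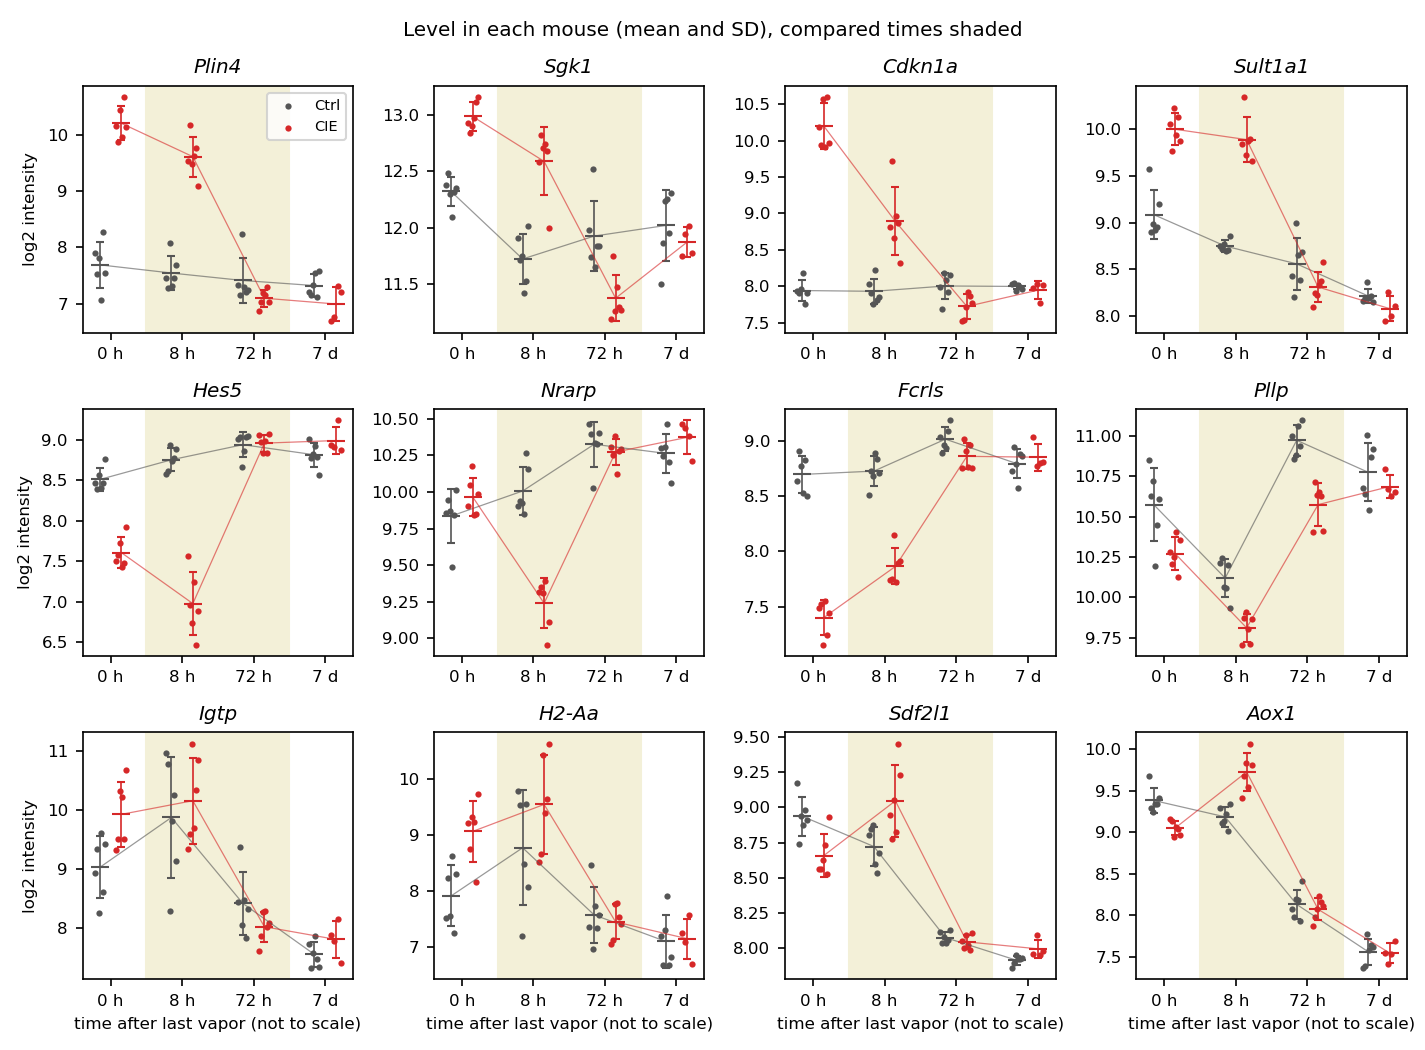
Level (log2 intensity, y axis) of 12 genes in each mouse at 0h, 8h, 72h and 7d (x axis, not to scale) in Ctrl (grey) and CIE (red) mice, 1 point per mouse, with bars for the mean and SD and the compared times shaded. Plin4, Sgk1, Cdkn1a and Sult1a1 came down to the range of Ctrl mice or just below it by 72h, Hes5, Nrarp and Fcrls came up to it, and the means of Igtp, H2-Aa, Sdf2l1, Aox1 and Pllp shifted the same way in both groups.

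Genes for protein folding in the ER also fell. Of 24 measured members, 13 fell and 0 rose, against 1.41% and 0.511% of all genes, with a median of -0.20. In Ctrl mice 6 fell (1.05% of all genes did), with a median of -0.10, and the change differed between the groups for 1 member. The mean of the list was 10.4 to 10.6 in CIE mice at 8h and 10.2 to 10.3 at 72h. For 13 members all 72h mice were below all 8h mice, against 1.69% of all genes. The promoters of Hspa5, Creld2 and Pdia6 are shown because these 3 genes fell together and share an ER stress element, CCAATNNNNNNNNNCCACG, the letters in capitals (the reverse complement in Creld2).
Hspa5: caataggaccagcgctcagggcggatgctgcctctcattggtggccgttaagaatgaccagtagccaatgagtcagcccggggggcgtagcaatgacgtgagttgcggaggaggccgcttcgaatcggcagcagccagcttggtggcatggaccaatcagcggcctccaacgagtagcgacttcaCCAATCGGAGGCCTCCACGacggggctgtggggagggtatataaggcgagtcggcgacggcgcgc
Creld2: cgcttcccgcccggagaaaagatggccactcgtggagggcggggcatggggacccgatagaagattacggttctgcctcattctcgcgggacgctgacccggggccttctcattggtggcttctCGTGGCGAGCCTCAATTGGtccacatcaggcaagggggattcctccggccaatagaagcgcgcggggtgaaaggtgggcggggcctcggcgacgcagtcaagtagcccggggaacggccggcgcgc
Pdia6: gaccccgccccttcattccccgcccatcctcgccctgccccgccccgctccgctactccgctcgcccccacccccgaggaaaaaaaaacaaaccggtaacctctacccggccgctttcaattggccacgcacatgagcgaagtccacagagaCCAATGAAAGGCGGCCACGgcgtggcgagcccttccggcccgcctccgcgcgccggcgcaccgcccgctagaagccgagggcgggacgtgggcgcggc
Each is the 250 bases before the gene's start, 5′ to 3′ on the gene's strand, from RefSeq (GRCm38.p6): chr2:34771840-34772089 (+), chr15:88819396-88819645 (+) and chr12:17266339-17266588 (+). The match begins 65, 126 and 98 bases before the start.

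On either strand this motif was in 33 of 27025 windows of the same length (0.122%). It was in 7 of the 12 called ER members with a window (Calr, Canx, Creld2, Dnajc3, Hsp90b1, Hspa5 and Pdia6) and in 1 of 9 others (Syvn1). Among all genes that fell it was in 8 of 206 windows, the eighth gene being Derl3, and among those that rose in 0 of 76. A match is a description of letters. The motif was searched after the changes were known.

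The ER chaperone Hspa5 (BiP) had levels of 12.40, 12.66 and 12.75 at 8h and 12.02, 12.13 and 12.24 at 72h, a change of -0.51 ± 0.06 (adjusted p = 2.02e-08, limma). Sdf2l1, which works with Hspa5, fell most, from 8.77 to 9.45 at 8h to 7.99 to 8.11 at 72h, which is 1.999-fold lower (adjusted p = 1.17e-12, limma). Manf, a secreted ER protein that protects neurons, went from 10.89, 11.04 and 11.23 to 10.42, 10.44 and 10.53 (-0.59 ± 0.05). All 3 also fell in Ctrl mice, by 0.34, 0.65 and 0.30 on the log2 scale.

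Among the disulfide isomerases, Pdia4 changed by -0.54 and Pdia6 by -0.42, and Creld2, another disulfide enzyme, by -0.46. At 8h Manf and Pdia4 were higher in CIE than in Ctrl mice (0.34 and 0.36, adjusted p = 2.10e-05 and 8.12e-04, limma). At 72h their difference from Ctrl was 0.05 for both genes and did not pass the test. Of 21 cytosolic heat shock genes, 1 fell in CIE mice (1.41% of all genes did), the small heat shock protein gene Hspb8 (-0.57 ± 0.13). Its call was lost on leaving out any 1 of 5 CIE arrays. In Ctrl mice 6 of the 21 fell (1.05% of all genes did), with a median of -0.10 against -0.04 in CIE mice. Hspa1b, the inducible Hsp70, had a change of -0.39 (adjusted p = 0.215, limma) in CIE mice and fell by 1.06 on the log2 scale in Ctrl mice.

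**Figure D3:**
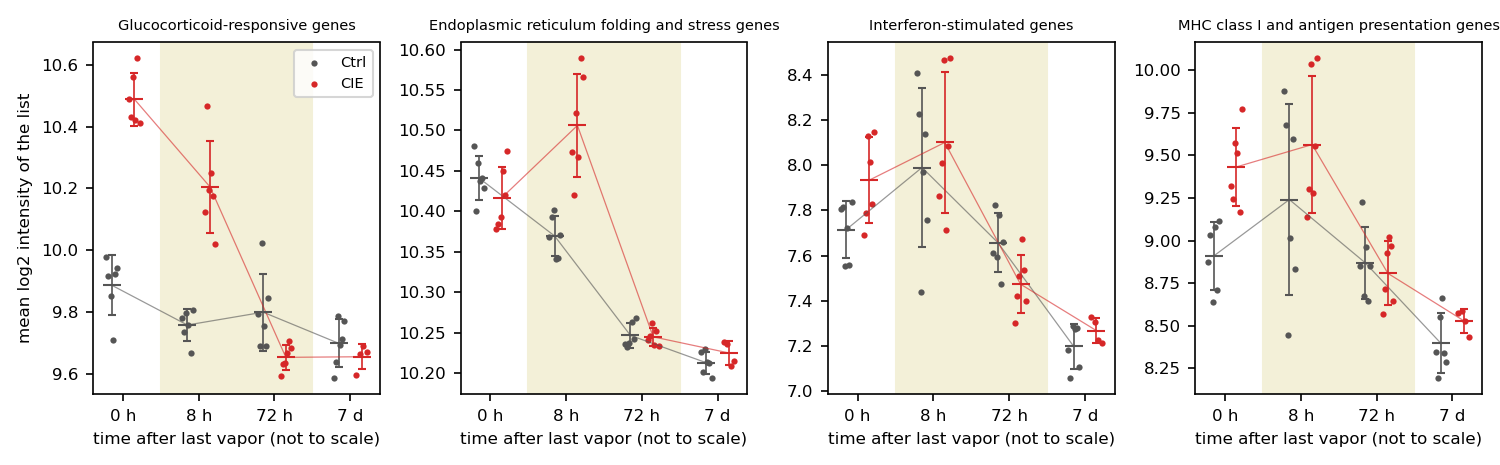
Mean log2 intensity of 4 gene lists (y axis) in each mouse at 0h, 8h, 72h and 7d (x axis, not to scale) for Ctrl (grey) and CIE (red), with bars for the mean and SD over mice and the compared times shaded. Glucocorticoid-responsive genes fell in CIE mice and lay at like levels at both times in Ctrl mice, ER folding genes fell in both groups, and the interferon and antigen presentation lists spread widely among the 8h mice of both groups.

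Interferon-stimulated genes gave many of the largest falls. Of 27 measured members, 15 fell and 0 rose, against 1.41% and 0.511% of all genes, with a median of -0.56. In Ctrl mice 1 fell and the median was -0.22, and limma called a difference between the CIE and Ctrl changes for 0 of the 27 (7 had an unadjusted p under 0.05). Of 15 measured genes of MHC class I and antigen presentation, 7 fell and all 15 had a lower mean, with a median of -0.53. The falls included H2-Aa, H2-Ab1 and Cd74 of the class II pathway. The class I genes H2-L, H2-Q4, H2-Q7 and H2-T23 were on the list but had no probeset of their own. In Ctrl mice limma called 0 (8 had an unadjusted p under 0.05), 12 had a lower mean and the median was -0.19. Both counts depended on single mice. They were 6 and 1 without CIE 8h replicate 23, 7 and 2 without CIE 8h replicate 69, 7 and 4 without CIE 72h replicate 3, and 9 and 4 without CIE 72h replicate 29. Without CIE 72h replicate 71, 4 antigen presentation genes were called. When the fit used the 12 CIE arrays alone the counts were 5 and 2.

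The promoters of Igtp and Gbp2 are shown because both genes fell and hold an interferon-stimulated response element, GAAANNGAAA, in capitals (its reverse complement in Gbp2); in Igtp an interferon-gamma activated site, TTCNNNGAA, stands in capitals just before it.
Igtp: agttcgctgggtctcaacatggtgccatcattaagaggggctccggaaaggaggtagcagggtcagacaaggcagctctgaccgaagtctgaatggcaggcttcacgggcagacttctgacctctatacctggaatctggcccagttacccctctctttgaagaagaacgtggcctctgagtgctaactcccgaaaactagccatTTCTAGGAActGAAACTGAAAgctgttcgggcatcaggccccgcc
Gbp2: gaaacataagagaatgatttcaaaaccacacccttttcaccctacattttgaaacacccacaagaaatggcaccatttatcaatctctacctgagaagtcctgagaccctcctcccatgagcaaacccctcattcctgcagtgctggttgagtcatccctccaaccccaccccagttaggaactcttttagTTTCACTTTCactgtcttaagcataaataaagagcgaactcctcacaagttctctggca
Each is the 250 bases before the gene's start, 5′ to 3′ on the gene's strand, from RefSeq (GRCm38.p6): chr11:58199306-58199555 (+) and chr3:142620413-142620662 (+). The response element begins 34 and 59 bases before the start.
It was in 3.04% of all windows on either strand, in 7 of the 11 called interferon members with a window and in 4 of 10 others. The activated site was in 7.18% of all windows in 3 of the same 11 and in 3 of the 10 others.

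Igtp, a GTPase that acts against intracellular parasites, was at 9.34, 10.02 and 11.12 at 8h and at 7.62, 8.05 and 8.29 at 72h (-2.13 ± 0.32, adjusted p = 2.03e-05, limma). H2-Aa, a chain of MHC class II, went from 8.52, 9.52 and 10.63 to 7.05, 7.48 and 7.79 (-2.09 ± 0.35, adjusted p = 1.05e-04, limma). Both were lower in each 72h mouse than in any 8h mouse, and 8h mice were widely spread in both groups. In Ctrl mice Igtp ranged from 8.29 to 10.96 and H2-Aa from 7.20 to 9.79 at 8h, with changes of -1.45 (adjusted p = 0.00606, limma) and -1.20 (adjusted p = 0.0493, limma).

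The related GTPases Iigp1, Irgm2 and Irgm1 changed by -1.96, -1.79 and -1.59, and the guanylate-binding proteins Gbp6 and Gbp2 by -1.87 and -1.33. In antigen presentation, the class II genes H2-Eb1 (-1.56), H2-Ab1 (-1.34) and Cd74 (-1.14), the class I activator Nlrc5 (-1.51) and the immunoproteasome subunits Psmb9 (-1.05) and Psmb8 (-0.94) fell. Cxcl10, a chemokine that interferon induces, was at 5.14, 6.54 and 7.12 at 8h and at 4.67, 5.13 and 5.41 at 72h (-1.16 ± 0.26), with an overlap of the groups. The interferon list mean was highest in CIE 8h replicates 23 and 69 (8.46 and 8.47) and in Ctrl 8h replicate 8 (8.41), and lowest among 8h mice in Ctrl 8h replicate 50 (7.44).

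Notch pathway genes were among the rises in CIE mice. Of 25 measured members 4 rose and 0 fell, against 0.511% and 1.41% of all genes. The transcriptional repressor Hes5 was at 6.47, 6.93 and 7.57 at 8h and at 8.83, 8.98 and 9.07 at 72h. Its change of 1.98 ± 0.11 (3.95-fold, adjusted p = 4.62e-17, limma) was the largest rise, and the 8h and 72h mice did not overlap. Ctrl mice were at 8.57 to 8.93 and 8.66 to 9.05, and the changes differed by 1.79 (adjusted p = 3.84e-10, limma).

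Nrarp, a Notch target that feeds back on the pathway, went from 8.96, 9.31 and 9.39 to 10.12, 10.29 and 10.38 (1.03 ± 0.08), and its change differed from Ctrl by 0.71 (adjusted p = 3.33e-04, limma). The target Hey1 and the receptor Notch1 each rose by 0.28, and their change did not differ from that in Ctrl mice by the test. Both lost the call in the fit of the 12 CIE arrays alone. Hey1 also lost it on leaving out any 1 of 7 CIE arrays, and Notch1 as the mean of its probesets. The remaining 21 members, among them the ligands Dll1 and Jag1 and the DNA-binding partner Rbpj, were not called. By 72h Hes5 and Nrarp differed from Ctrl mice by 0.02 and -0.05.

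The Hes5 promoter is shown because that gene rose most. Capitals mark RBPJ motifs, TGGGAA or its reverse complement, which begin 226 and 82 bases before the start.
Hes5: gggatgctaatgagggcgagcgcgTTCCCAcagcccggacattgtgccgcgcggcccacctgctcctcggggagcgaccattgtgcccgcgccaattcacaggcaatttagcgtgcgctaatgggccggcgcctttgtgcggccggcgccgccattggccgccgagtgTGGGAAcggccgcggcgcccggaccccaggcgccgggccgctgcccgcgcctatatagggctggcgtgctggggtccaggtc
The window is the 250 bases before the start, 5′ to 3′, from RefSeq (GRCm38.p6), chr4:154960673-154960922 (+). This short motif was in 21.5% of all windows, in 1 of the 3 called members of the pathway with a window and in 3 of 17 others, and it was in 4 of the 4 called antigen presentation members with a window and in 5 of 7 others.

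Other rises included a microglial receptor gene and genes of secreted proteins. Fcrls, a microglial receptor, went from 7.72, 7.82 and 8.15 to 8.75, 8.84 and 9.02 (1.00 ± 0.08), without overlap, and its change exceeded that in Ctrl mice by 0.71 (adjusted p = 2.34e-04, limma). It was the 1 of 17 microglial markers called in CIE mice, where the median was 0.01 and the list mean 8.98 to 9.52 at 8h and 9.09 to 9.40 at 72h. In Ctrl mice 3 of the 17 rose (0.605% of all genes did) and the median was 0.29. Mfge8, a secreted bridge to dying cells, rose by 0.62 ± 0.05, more than in Ctrl mice by 0.49.

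Wfdc18, a small secreted protein gene, rose by 1.17 ± 0.10 and in Ctrl mice by 0.74. Fabp7, a fatty acid binding protein of radial glia and astrocytes, went from 9.06, 9.29 and 9.52 to 9.77, 9.96 and 10.39 (0.74 ± 0.11). The Wnt receptor Fzd2 rose by 0.80 and Gkn3 by 0.81. For these 4 genes all CIE mice at 72h were above all CIE mice at 8h, as they were for 1.18% of all genes.

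Among oligodendrocyte genes, the myelin protein gene Pllp went from 9.71, 9.83 and 9.91 to 10.41, 10.63 and 10.71 (0.76 ± 0.08) and rose by 0.85 in Ctrl mice. Gpr17, a receptor of cells turning from precursors into oligodendrocytes, rose by 0.53 in CIE and 0.51 in Ctrl mice, and Opalin, a myelin gene, by 0.37 and 0.52. In CIE mice Gpr17 stayed 0.48 below Ctrl at 72h (adjusted p = 0.00143, limma), after -0.50 at 8h. At 72h all 13 precursor, 17 oligodendrocyte and 17 microglial markers had a lower mean in CIE than in Ctrl mice. The median differences were -0.22, -0.30 and -0.39. Neuron lists were mixed, with 3 of 22 BNST markers (median 0.25) and all 14 striatal markers lower (median -0.17). Of 10 cholinergic markers 7 were lower (median -0.43), as were 6 of 14 cortical and hippocampal and 9 of 18 thalamic and hypothalamic markers. From 8h to 72h all 17 oligodendrocyte markers had a higher mean in Ctrl mice (median 0.18). Cell type shares were not tested. In CIE mice 1 of 17 oligodendrocyte and myelin markers and 1 of 13 precursor markers rose over the interval (0.511% of all genes did). Of 16 astrocyte markers 1 rose (Slc1a3, 0.27) and 2 fell (Gjb6 and Gja1). For Gja1 and Slc1a3 some other probesets had the opposite sign.

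Enzymes that handle drugs and aldehydes fell. Of 17 measured members, 7 fell and 0 rose, against 1.41% and 0.511% of all genes. Adh1, Aldh2, Cat and Cyp2e1, which act on ethanol or acetaldehyde, were among the 10 not called. In Ctrl mice 3 of the 17 fell (1.05% of all genes did) and 13 had a lower mean. The change differed between the groups for 4 members. Aox1, an aldehyde oxidase, went from 9.42, 9.75 and 10.07 to 7.86, 8.09 and 8.23 (-1.66 ± 0.09, adjusted p = 7.42e-18, limma). It fell in Ctrl mice as well, from 9.01 to 9.34 at 8h to 7.93 to 8.41 at 72h, and the fall in CIE mice was larger by 0.60 (adjusted p = 0.00479, limma).

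Aass, the first enzyme of lysine breakdown, fell by 0.84 in CIE and by 0.29 in Ctrl mice. Xanthine dehydrogenase (Xdh) fell by 0.74 in CIE mice and had a change of 0.27 in Ctrl mice (adjusted p = 0.212, limma). The changes of both genes differed from Ctrl. Cyp1b1 (-0.67) and epoxide hydrolase Ephx1 (-0.55) fell without a called difference. Of 19 NRF2 and antioxidant genes 6 fell (1.41% of all genes did), namely Nqo1 (-0.50), Osgin1 (-0.45), Gclm (-0.44), Mt2 (-0.42), Mt1 (-0.39) and Srxn1 (-0.39). The metallothioneins Mt1 and Mt2 also stand in the glucocorticoid list. In Ctrl mice 1 of the 19 fell (1.05% of all genes did) and 14 had a lower mean. The change differed between the groups for 2 members.

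In CIE mice 1.41% of all genes fell. Of 24 genes of lipid droplets and fatty acid oxidation 4 fell: Plin4, Pdk4, the droplet protein gene Plin3 (-0.50) and Cpt1a (-0.27), which brings fatty acids into mitochondria. Of 23 genes of NF-kB feedback and C/EBP factors 4 fell, the transcription factors Cebpd (-0.84) and Cebpb (-0.31), the NF-kB inhibitor Nfkbia (-0.39) and Cxcl10. The desaturase Scd1 (-0.51) and the sterol sensor partner Insig1 (-0.39) fell of 23 lipid synthesis genes. The glucose transporter Slc2a1 fell by 0.30 in CIE mice and had a change of 0.24 in Ctrl mice. Ptgds, a prostaglandin synthase, fell by 0.65.

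**Figure D4:**
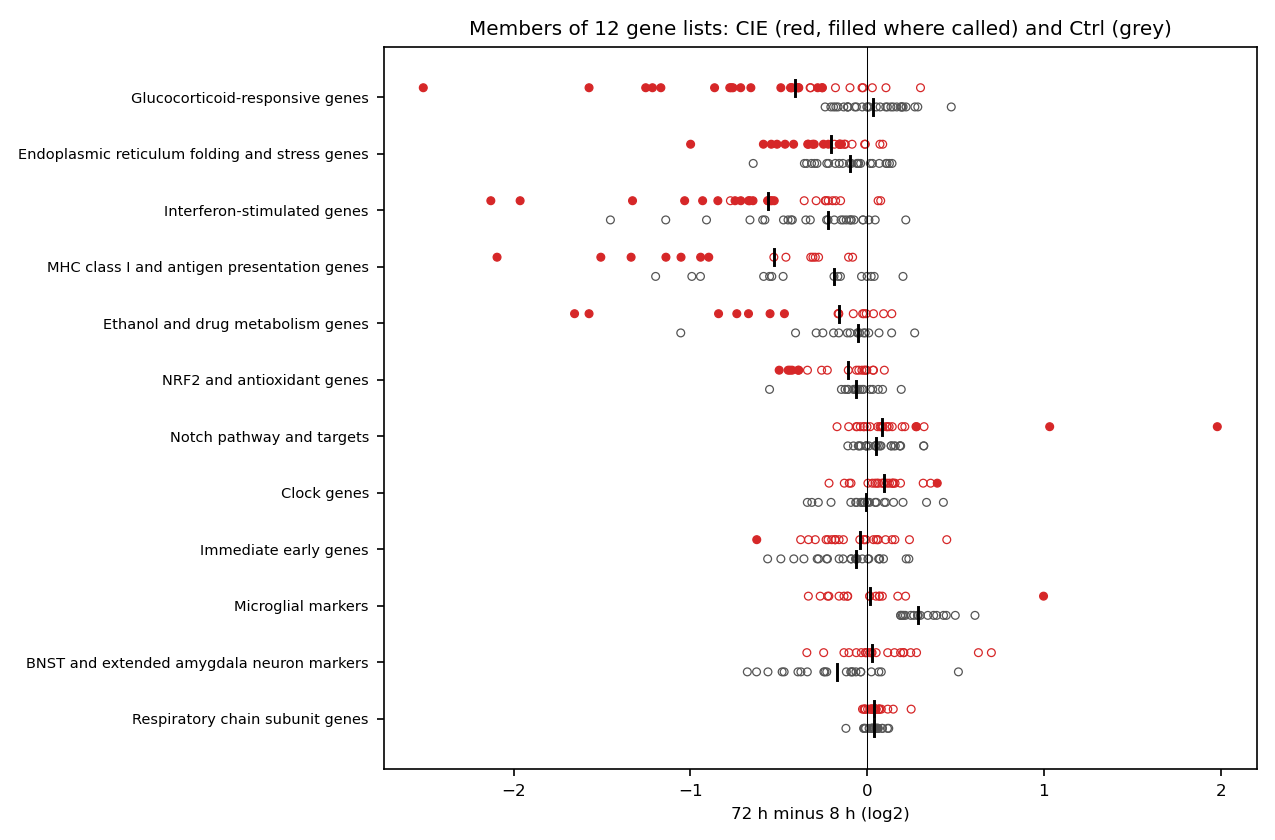
Change from 8h to 72h (x axis, log2) of each measured member of 12 gene lists (y axis), red for CIE, filled where called, and grey for Ctrl, with a black bar at the median. The medians of the glucocorticoid, ER, interferon and antigen presentation lists lie left of 0 in CIE mice. Hes5 lies farthest right, followed by Nrarp and the microglial gene Fcrls. The medians of clock, immediate early and respiratory chain genes lie near 0, with single members further out.

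In 10 lists of neuronal and housekeeping genes 0 genes were called (1.92% of all genes were). These 10 were chosen from the lists with 0 called, so the count does not speak for neuronal or housekeeping genes as a whole. Among similar lists, 1 of 14 cortical and hippocampal neuron markers and 1 of 29 splicing genes rose. None of the 22 BNST and extended amygdala markers, 14 striatal markers, 20 GABA genes, 25 glutamate receptor genes, 23 potassium channel genes, 22 synaptic release genes, 30 chromatin modifiers, 29 respiratory chain genes, 22 ribosomal protein genes or 30 proteasome genes was called by limma in CIE mice. These 10 lists hold 234 genes, of which 25 (10.7%) had an unadjusted p under 0.05, close to the 11.9% over all probesets (5353). Of 37 BNST neuropeptides and receptors 1 rose, the PACAP receptor gene Adcyap1r1 (0.26 ± 0.05). The stress peptide gene Crh was at 9.28, 10.57 and 10.85 at 8h and at 9.80, 10.24 and 10.56 at 72h (-0.13 ± 0.20), and the kappa opioid receptor gene Oprk1 changed by -0.08 ± 0.08.

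Of 25 immediate early genes 1 fell (1.41% of all genes did), Fos, from 8.86, 9.25 and 9.64 to 8.41, 8.58 and 8.87 (-0.63 ± 0.14). The call of Fos was lost on leaving out any 1 of 8 CIE arrays and in the fit of the 12 CIE arrays alone. In Ctrl mice 1 of the 25 fell (1.05% of all genes did). Npas4 had a change of 0.16 ± 0.17. Of 22 clock genes 1 rose (0.511% of all genes did), Dbp, a clock output, from 10.86, 11.03 and 11.32 to 11.22, 11.44 and 11.66 (0.40 ± 0.08). Dbp had a change of 0.34 in Ctrl mice (adjusted p = 0.0168, limma). Ciart had 0.32 (adjusted p = 0.0126, limma) in CIE and rose by 0.43 in Ctrl mice, and Per2 and Nr1d1 had changes of -0.10 and 0.19 in CIE mice. The core clock gene Bmal1, listed as Arntl, had 0.00.

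For some genes the interval differed through Ctrl mice. Cdc7, a kinase of DNA replication, was at 9.13 to 9.41 at 8h and 9.20 to 9.41 at 72h in CIE mice (0.08 ± 0.05), while Ctrl mice went from 9.53 to 9.65 down to 9.09 to 9.15. The changes differed by 0.55 (adjusted p = 4.71e-06, limma). The choline transporter gene Slc5a7 had 0.08 in CIE mice and rose by 0.61 in Ctrl mice, but that difference did not pass the test (adjusted p = 0.139, limma). Of 10 cholinergic neuron markers, 0 were called in CIE mice (1.92% of all genes were) and 3 rose in Ctrl mice (0.605% of all genes did). The test called a difference between the CIE and Ctrl changes for 0 of the 10.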

How the data were processed

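RNA from the BNST of single adult male mice was hybridized to Affymetrix mouse genome arrays. The authors summarized probes with the affy package of R (RMA background correction, quantile normalization within and then across hybridization batches) and removed batch effects with ComBat. The deposited values are log2 probeset intensities (2.68 to 14.4, 0 missing), with no probe-level signal or detection call, so that the number of arrays limits the precision and RMA and ComBat both narrow the spread between arrays. Package versions, ComBat covariates and array batches are not given in the sources used here. No fit with batch as a term and no within-batch values could be made, so the part of batch in these results was not tested. Treatments and times were randomized in processing, per the study's methods. No column was left without a sample (0), and 0 arrays were identical.

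The 8 group means over 46 arrays were fitted with limma 3.58.1 (R 4.3.3, lmFit and eBayes, 38 residual degrees of freedom), with contrasts for CIE 72h minus 8h, Ctrl 72h minus 8h and their difference. P-values were adjusted by Benjamini-Hochberg over 45037 probesets and called at 0.01 or less, the false discovery rate of the study. GEO's platform annotation gave 1 symbol to 34945 probesets, several to 932 and none to 9160. The brightest probeset with 1 symbol stood for each of 18193 genes. Scripts were tested on simulated data.

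Of 46 gene lists, 848 of 927 genes were measured. Named genes were the 20 largest rises and 20 largest falls among called genes, up to 6 called members of each list, the 10 smallest p-values of the difference, and 30 measured genes fixed by name, in all 105 genes of which 89 were called. Members, lists and rules were chosen with earlier results of these data known. Promoter windows of 250 bases came from RefSeq (GRCm38.p6). Of the promoter motifs, the ER stress element, the interferon-stimulated response element and the interferon-gamma activated site were added after the changes had been seen, as were the list counts leaving out each array and the gene count without CIE 8h replicate 21.

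Alternatives were the 12 arrays of a contrast alone, the 24 arrays at 8h and 72h, array weights, a trended robust prior, leaving out dim or possibly cross-hybridizing probesets, 2 further scalings, another threshold, the mean of a gene's probesets, and leaving out each array.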

Additional observations from a re-analysis of the deposited data

Results flagged for a closer look

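In 10 of 210 combinations of a named gene with 1 of the 2 CIE groups, 1 mouse stood apart from the other 5 by Dixon's test. The nominal rate of the test is 1 in 20. Most of these genes were chosen because they were called and they are not independent, so that rate is no measure of chance here. CIE 8h replicate 21, which had the lowest median correlation among the 12 CIE arrays, accounted for 6 of them. It was high for Sult1a1 (10.3, next mouse 9.89), Pdk4 (9.33, next 8.56), Nqo1 (8.10, next 7.79), Slc2a1 (11.8, next 11.47) and Pkd2l1 (6.79, next 6.22), and low for Pdia4 (9.20, next 9.61). Of the others, CIE 8h replicate 69 was low for Sgk1 (12.0, next 12.58) and CIE 8h replicate 15 low for Mt2 (13.1, next 13.24). CIE 72h replicate 71 was high for Srrm1 (11.3, next 11.2) and low for Gpr17 (9.32, next 9.48).

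The change from 8h to 72h differed between CIE and Ctrl mice for 28 named genes (limma, interaction contrast, adjusted p of 0.01 or less), with differences given here as the CIE change minus the Ctrl change on the log2 scale. The differences were -2.38 for Plin4, -1.38 for Sult1a1, -1.45 for Arrdc2, -1.42 for Sgk1, -1.24 for Cdkn1a, -0.95 for Cebpd, -0.75 for Htra1, -0.52 for Gjb6, -0.85 for Tsc22d3, -0.61 for Nfkbia and -0.32 for Mt1. They were -0.60 for Aox1, -0.55 for Aass, -1.01 for Xdh, -0.40 for Scd1, -0.62 for Plin3, -0.47 for Gpt2, -0.36 for Srxn1, -0.55 for Slc2a1 and -0.63 for Ptgds. The GABA receptor subunit gene Gabrr2 differed by -1.02 and the hypoxia factor gene Hif3a by -0.69. Genes with a higher change in CIE mice were Hes5 (1.79), Nrarp (0.71), Fcrls (0.71), Gm266 (0.61), Cdc7 (0.55) and Mfge8 (0.49).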

How the results depend on the processing

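No paired analysis was possible because the replicate numbers are animal numbers that the groups do not share. The reported counts were 618 probesets in CIE mice (72.5% lower at 72h), 495 in Ctrl mice (65.7% lower) and 232 for the difference of the changes (61.2% lower). With the 12 arrays of a contrast alone they were 258 (81.4% lower) and 314 (55.4% lower). Array weights gave 999 (61.8% lower), 1393 and 702 (46.6% lower), and an adjusted p of 0.05 or less gave 1116, 1281 and 639. The other settings stayed within 1.5 times, and the cause of these moves was not tested. Leaving out each array gave 463 (without CIE 8h replicate 23) to 600 (without CIE 8h replicate 40) in CIE mice, 264 to 533 in Ctrl mice and 153 to 287 for the difference, where 153 was without Ctrl 8h replicate 75. The Ctrl count moved by over 1.5 times without Ctrl 8h replicate 8 (325), 42 (273) or 75 (278) and without Ctrl 72h replicate 16 (292), 44 (264), 52 (296) or 68 (311). The mean of all probesets of a gene gave 349 called genes, of which 268 were among the 350. Of the 89 called named genes, 47 were called in every setting and 0 reversed. Fitted on the 12 CIE arrays alone 39 lost the call, and 28 lost it when some 1 array was left out.

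In the fit of the 12 CIE arrays alone, falls numbered 14 (against 19) among glucocorticoid-responsive genes, 9 (13) among ER folding genes, 6 (7) among drug metabolism genes and 3 (6) among NRF2 genes, and 2 (4) Notch pathway genes rose. Leaving out each CIE array gave 17 to 20, 12 to 15, 7 to 7 and 6 to 7 falls and 3 to 5 rises. Some genes not called changed sign. Leaving out each array, Arntl ranged from -0.0337 to 0.0426, Per1 from -0.0250 to 0.0982, Tmem215 from -0.257 to 0.0565 and Slc5a7 from -0.0323 to 0.160. With array weights Arntl was at -0.0210, and as the mean of its probesets Per2 was at 0.0107. Of the 89 called named genes, 44 had other probesets, 25 had another one called in the same direction and 0 one called in the opposite direction. For Fzd1 and Gm266 all others had the opposite sign.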
